A study of Mus musculus with 6 samples.

Results

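A set of 154 known piRNAs was expressed at a low or moderate level in control mouse testis and stood far higher in each testis library made after heat stress. They were chosen from 24845 species that carry an identifier of the form mmu_piR_ and a number, among 659239 small RNA species listed in all. A species entered if it had 5 RPM (reads per 1000000 reads on listed species) or more in at least 1 control library, a control mean below 500 RPM, a heat stress mean of 100 RPM or more, and a value in every heat stress library above 4 times the highest control value. In the study, 12 C57BL/6 mice were assigned at random to 2 groups. In the control group the scrotum was held at 36 °C in water for 15 minutes, and in the heat stress group at 43 °C for the same time. Testis tissue was taken 24 hours later, and each group is represented by 3 small RNA libraries. Whether 1 mouse or several gave the RNA of a library is not stated, so the spread between libraries may be partly technical.

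piRNAs are small RNAs bound by PIWI proteins, and male germ cells are their main site in the adult mouse. They are cut from long single-stranded precursor transcripts, many of which come from genomic clusters, and they guide PIWI proteins to transposon and other transcripts. In the adult testis the largest class appears in spermatocytes at the pachytene stage of meiosis, and other classes are made earlier in germ cell development. Whole testis was sequenced, so a change in the number of cells of a type and a change in RNA per cell cannot be told apart. RPM is a share of the reads and not an absolute amount: a species can gain RPM where other species are lost. The files list only mmu_piR_ and uniq_ identifiers, and the number of species with any other identifier was 0, so the tissue could not be checked against messenger or microRNA markers. The sequences, lengths and genomic positions of the 154 piRNAs were not analysed here.

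The libraries differed in depth, with 2573473 to 4255001 recovered reads in the controls and 582789 to 2599530 in heat stress. Heat stress replicate 3 was the shallowest, and 1 of its reads is worth 1.72 RPM. The lowest value of any of the 154 piRNAs in that library, 48.0 RPM, rested on 28 reads. The lowest control value in control replicate 3, 2.33 RPM, rested on 6 reads, so the ratios of the members with the lowest control levels carry the largest counting error. All mmu_piR_ species together held 67.2% to 67.3% of the control reads and 87.5%, 77.2% and 92.6% in the heat stress libraries, in replicate order. Heat stress replicate 2 lay closest to the controls by this measure.

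The 154 piRNAs went from a small part of the library to a large one. In the controls they held 0.537%, 0.540% and 0.470% of the reads in replicates 1, 2 and 3 (95% Wilson intervals 0.530 to 0.544, 0.533 to 0.547 and 0.461 to 0.478, which cover counting error only). After heat stress they held 15.4%, 6.37% and 11.6% of the reads in replicates 1, 2 and 3 (15.3 to 15.4, 6.34 to 6.40 and 11.5 to 11.7). The groups do not overlap, as the rule fixes, and the heat stress libraries differ among themselves far beyond counting error, with replicate 2 the lowest. The mean share was 0.515% ± 0.0396 (SD, n = 3) in control and 11.1% ± 4.52 (SD, n = 3) in heat stress, a difference of 10.6 percentage points. Relative to the control mean, the summed level was 29.8-fold in heat stress replicate 1, 12.4-fold in replicate 2 and 22.5-fold in replicate 3. The values that chose the members are the same ones, so no test is given for this difference. Among the mmu_piR_ reads alone the share was 0.766% ± 0.0589 in control and 12.8% ± 4.66 in heat stress (SD, n = 3).

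**Figure D1:**
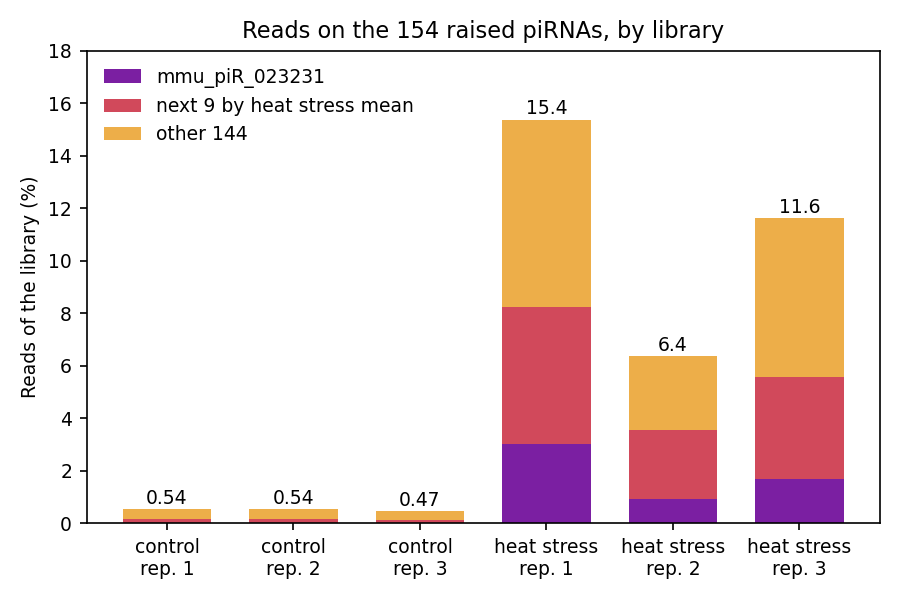
Stacked bars give the percentage of each library's reads (vertical axis) on the 154 piRNAs, split into mmu_piR_023231, the next 9 by heat stress mean and the other 144. The controls lie at 0.470% to 0.540% and heat stress replicates 1, 2 and 3 at 15.4%, 6.37% and 11.6%.

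The members held a part of the gain in mmu_piR_ reads that was larger than their number, as a rule that asks for a high level and a large ratio makes likely. By group means, 13517 mmu_piR_ species were higher in heat stress than in control, and together they gained 41.5 percentage points of the reads. The 154 members are 1.14% of these species and held 25.5% of that gain. The part was 27.9% in heat stress replicate 1, 23.6% in replicate 2 and 21.2% in replicate 3, each set against the control mean. Within the members the gain was again uneven. mmu_piR_023231 alone accounted for 17.5% of the members' gain, the first 5 for 40.6%, the first 10 for 53.2% and the first 50 for 78.6%. The 10 members with the highest heat stress mean held 28.1% ± 0.919 of all member reads in control and 52.5% ± 4.11 in heat stress (SD, n = 3), so the most abundant ones gained more than their share of the set. These 10 were picked by their heat stress level, which fixes part of that shift.

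The members moved up the order of abundance, a direction that the rule largely sets. In each control library 0 of them were among the 100 most abundant species, and the best placed stood at rank 211, 227 and 388. The ceiling on the control mean makes their absence from the top of the controls likely. The required heat stress mean and the required ratio likewise favour a climb in rank, so only its size in each library is described. The 100 most abundant species of a heat stress library held 25 members in replicate 1, 10 in replicate 2 and 23 in replicate 3. Their median rank over all listed species was 6520.5, 6454 and 7418 in the controls and 371.5, 1046 and 480 in heat stress, each in replicate order. A member was the most abundant species of the whole library in heat stress replicates 1 and 3, and the second most abundant in replicate 2.

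Each of the 154 was fitted with all other species by limma, and 154 of 154 were higher in heat stress at an adjusted p under 0.05. Among all 50786 species tested 6.36% were called higher, and among the 17626 mmu_piR_ species tested 15.9%. Nothing is read from this count, because the rule chose the members on the same contrast. The median log2 fold change of the members, on the log2(RPM + 1) scale, was 3.62 (range 2.32 to 7.82), beside -0.87 over all species tested and 0.03 over the mmu_piR_ species tested. The standard errors of the members lay between 0.41 and 0.73 and the limma adjusted p between 6.4e-07 and 0.00503. With recovered reads, the quasi-likelihood test of edgeR called 154 members higher, where 11.9% of all species were called higher, and DESeq2 called 150, where 9.11% were. The members' median log2 fold change was 4.69 with edgeR and 4.45 with DESeq2. DESeq2 gave neither a p nor an adjusted p for the other 4, mmu_piR_011571, mmu_piR_012247, mmu_piR_012883 and mmu_piR_033656. In each of these, heat stress replicate 1 lay far above replicates 2 and 3, as for mmu_piR_012247 at 1213, 256 and 235 RPM. mmu_piR_012247 falls outside the naming rule and is given to complete this count. limma called 154 of 154 higher with TMM factors applied to the values, where 8.59% of all species were called higher, and 154 of 154 with each library scaled to its mmu_piR_ reads, where 10.1% of the mmu_piR_ species were.

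The ratio of the heat stress mean to the control mean had a median of 15.1 over the 154 piRNAs, with a lower quartile of 11.3 and an upper quartile of 23.0. It was at least 10 in 127 members, at least 20 in 51, at least 50 in 8 and at least 100 in 2. Control means ran from 4.61 to 403 RPM with a median of 19.1 RPM, and 78 members lay below 20 RPM. Heat stress means ran from 102 to 18668 RPM with a median of 297 RPM, and 18 members reached 1000 RPM. The 36 members with a control mean under 10 RPM had a median ratio of 21.5, the 93 between 10 and 50 RPM one of 13.7 and the 25 at 50 RPM or more one of 12.3. The required heat stress mean of 100 RPM admits low species only where their ratio is large, so this order is partly set by the rule. The 25 members at 50 RPM or more carried 63.4% of the members' gain.

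**Figure D2:**
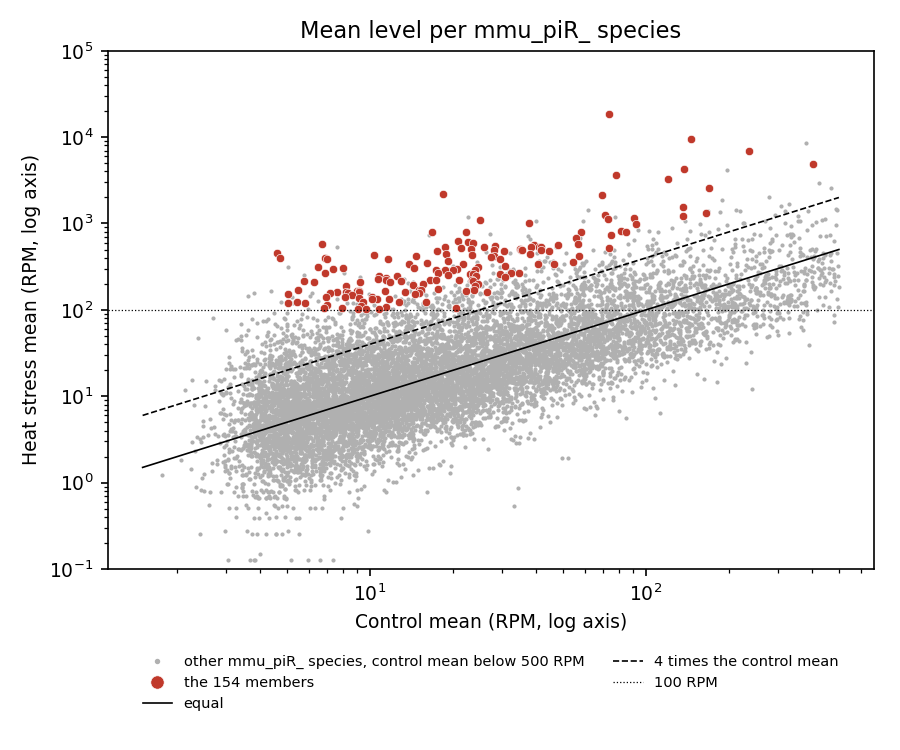
Each point is 1 mmu_piR_ species with 5 RPM or more in a control and a control mean below 500 RPM, with its control mean (horizontal) and heat stress mean (vertical) in RPM on log axes, and 5 species with a heat stress mean of 0 are not drawn. The 154 members (red) lie above 100 RPM and above 4 times their control mean, from a control mean of 4.61 RPM to one of 403 RPM.

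The member with the highest level after heat stress was mmu_piR_023231. Given in replicate order, as all values by library are from here on, it stood at 67.6, 67.7 and 84.3 RPM in the controls and at 30005, 9155 and 16843 RPM in heat stress. Even its lowest heat stress value was 109 times its highest control value, the widest separation of the set. Its rank among all species went from 2190, 2172 and 1677 in the controls to 1, 3 and 1 in heat stress. By itself it made up 3.0%, 0.916% and 1.68% of the heat stress reads.

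mmu_piR_038322 was second, at 115.7, 139.6 and 181.9 RPM in the controls and 13287, 9324 and 5580 RPM in heat stress. It was the highest member of heat stress replicate 2, just above mmu_piR_023231. mmu_piR_000362 was the steadiest of the 10 members with the highest heat stress mean, at 3273, 4963 and 4722 RPM, and was less even in the controls, at 173.7, 162.6 and 75.4 RPM. Its heat stress mean of 4319 ± 914 RPM (SD, n = 3) was 31.5-fold that of the controls, and replicate 2 was here the highest of the heat stress libraries. It was 1 of only 2 members with this order.

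Among the other members of high heat stress mean, some were highest in replicate 3. mmu_piR_030366 stood at 245.8, 250.1 and 212.6 RPM in the controls and at 7222, 2818 and 10426 RPM in heat stress. mmu_piR_027673 had the highest control level of the set, at 472.7, 439.7 and 296.1 RPM, and stood at 3010, 2827 and 8761 RPM in heat stress. Its 12.1-fold ratio of means rested partly on replicate 3, without which it was 7.24.

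A larger number of the abundant members were highest in heat stress replicate 1. mmu_piR_034930 was even in the controls, at 78.2, 75.7 and 80.4 RPM, and stood at 6763, 2132 and 2131 RPM in heat stress, a 47.1-fold ratio of means that was 27.3 without replicate 1. mmu_piR_031123 stood at 128.8, 119.2 and 112.7 RPM in the controls and at 4907, 1282 and 3657 RPM in heat stress, a 27.3-fold ratio. mmu_piR_001426 stood at 179.4, 174.6 and 153.1 RPM in the controls and at 4485, 1682 and 1474 RPM in heat stress, and its 15.1-fold ratio was 9.33 without replicate 1. In these piRNAs the control libraries agreed closely while the heat stress libraries spread, with replicate 1 at the top. mmu_piR_016413 had the same order as mmu_piR_031123, at 69.4, 79.4 and 58.3 RPM in the controls and 3709, 925 and 1716 RPM in heat stress, and its 30.7-fold ratio was 19.1 without replicate 1.

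mmu_piR_011571 differed from all other members in how unevenly it stood after heat stress. It was at 18.6, 19.3 and 17.1 RPM in the controls and at 5618, 561 and 398 RPM in heat stress. The highest heat stress value was 14.1 times the lowest, and the ratio of means of 120 was 26.2 without replicate 1. Replicates 2 and 3 still lay 30.6-fold and 21.7-fold above the control mean.

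Several of the largest ratios belonged to piRNAs with a control level of a few RPM. mmu_piR_037303, which had the lowest control mean of the set, stood at 4.39, 5.17 and 4.27 RPM in the controls and at 334, 195 and 830 RPM in heat stress. Its 98.3-fold ratio of means was 57.3 without heat stress replicate 3. mmu_piR_020492 stood at 2.84, 8.70 and 8.55 RPM in the controls and at 446, 413 and 887 RPM in heat stress, an 86.9-fold ratio of means. For both, the lowest heat stress library was still more than 37 times the highest control. mmu_piR_033656 stood at 4.91, 5.41 and 3.89 RPM in the controls and at 928, 130.4 and 135.6 RPM in heat stress, and its 84.1-fold ratio was 28.1 without replicate 1. mmu_piR_038733, of similar control level, stood at 2.32, 5.41 and 7.38 RPM in the controls and at 306, 66.2 and 85.8 RPM in heat stress, and its 30.3-fold ratio was 15.1 without replicate 1.

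The other members with the largest ratios kept replicate 1 highest and replicate 2 lowest. mmu_piR_007169 stood at 8.78, 6.82 and 5.05 RPM in the controls and at 513, 177 and 496 RPM in heat stress, a 57.5-fold ratio. mmu_piR_038688 stood at 8.52, 7.76 and 4.66 RPM and at 713, 138 and 304 RPM, and its 55.1-fold ratio was 31.6 without replicate 1. mmu_piR_033775 stood at 9.81, 4.23 and 5.44 RPM and at 475, 197 and 279.7 RPM, a 48.9-fold ratio. In these 3 the lowest heat stress library was more than 16 times the highest control. mmu_piR_012582 stood at 13.7, 13.4 and 23.3 RPM in the controls and at 1316, 358 and 748 RPM in heat stress, a 48.1-fold ratio.

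**Figure D3:**
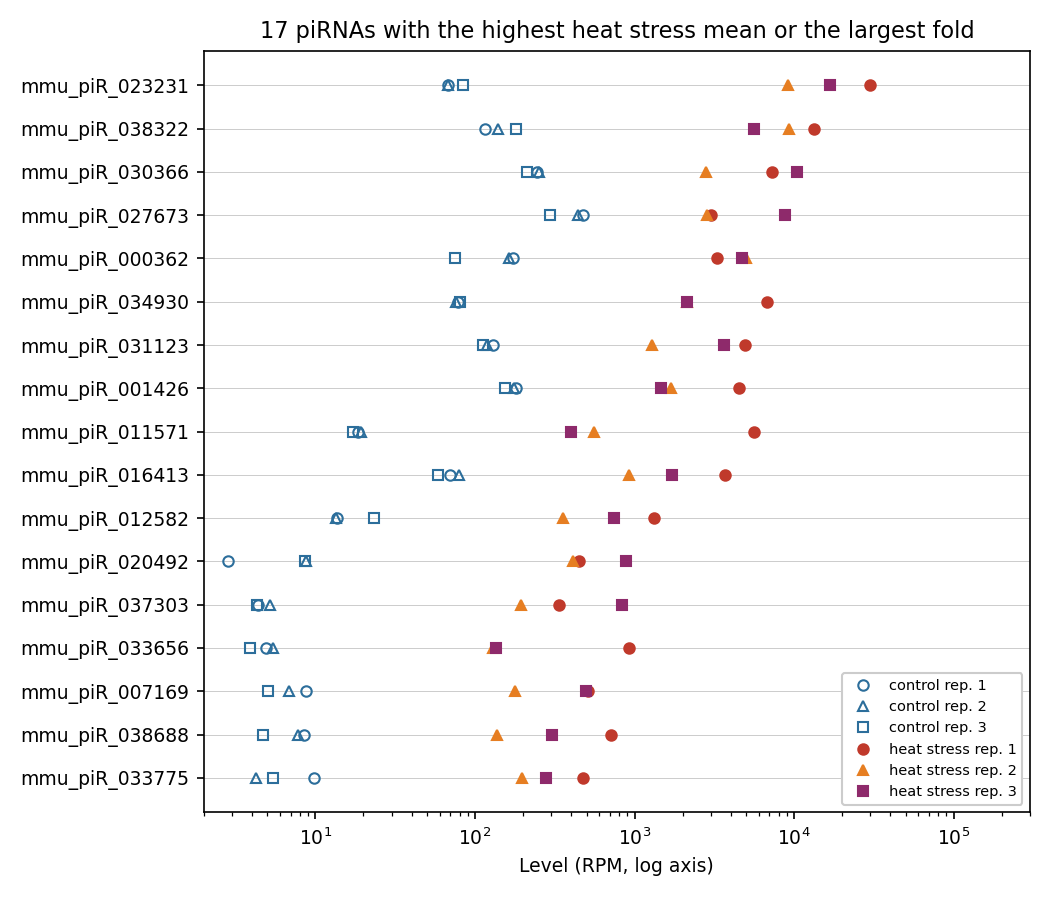
Points give the level in RPM (horizontal log axis) of 17 members in every library, with open symbols for control and filled ones for heat stress. In each of the 17 the heat stress points lie to the right of all control points, from mmu_piR_033775 at 197 to 475 RPM to mmu_piR_023231 at 9155 to 30005 RPM.

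The rule fixes the direction in all 3 heat stress libraries, and the size of the rise differed between them. The median level over the control mean was 19.3-fold in replicate 1, 7.91-fold in replicate 2 and 16.5-fold in replicate 3. A level above 16 times the control mean was reached by 90 members in replicate 1, 18 in replicate 2 and 78 in replicate 3. Replicate 2 was the lowest heat stress library for 128 of the 154 members, and the highest for 2. Over all 10956 mmu_piR_ species that met the 2 control criteria, replicate 2 was the lowest heat stress library for 21.3%, and replicate 1 for 51.9%. Of these, 716 had a heat stress mean of 100 RPM or more and every heat stress library above all controls. Among the 716, which include the members, replicate 2 was lowest for 490, replicate 1 for 121 and replicate 3 for 105. A low replicate 2 was thus not particular to the members. The mmu_piR_ share was also lowest in replicate 2, 77.2% against 87.5% and 92.6% in replicates 1 and 3. It was highest in replicate 3, while the members' median was highest in replicate 1. Among the mmu_piR_ reads alone the members held 17.6%, 8.25% and 12.5% in replicates 1, 2 and 3. The part of the mmu_piR_ share in the result was not tested. The highest heat stress value was a median of 3.13 times the lowest, and it stayed under 2 times in 14 members.

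The 3 most even members after heat stress had ratios below the median of 15.1. mmu_piR_008796 stood at 27.9, 24.0 and 28.0 RPM in the controls and at 164, 148 and 165 RPM in heat stress, a 5.98-fold ratio. mmu_piR_029348 stood at 29.2, 26.1 and 33.8 RPM and at 271, 234 and 266 RPM, an 8.66-fold ratio. mmu_piR_022020 stood at 21.7, 23.3 and 16.3 RPM and at 110.2, 95.8 and 109.8 RPM, with a ratio of 5.15 that was the lowest of the set. In these piRNAs the standard deviation of log2(RPM + 1) was smaller among the heat stress libraries, at 0.08, 0.11 and 0.11, than among the controls, at 0.12, 0.18 and 0.26. At the other end, mmu_piR_028722 stood at 25.04, 28.0 and 15.2 RPM in the controls and at 601, 115.4 and 1119 RPM in heat stress, and its 26.9-fold ratio was 15.8 without replicate 3. mmu_piR_012883 stood at 10.8, 8.23 and 13.2 RPM in the controls and at 593, 92.7 and 58.3 RPM in heat stress, and its 23.1-fold ratio was 7.02 without replicate 1.

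Over the set, the standard deviation of log2(RPM + 1) had a median of 0.87 among the heat stress libraries and 0.25 among the controls, and it was larger in heat stress for 145 of 154 members. The same held for 85.2% of the 10956 species that met the control criteria, where the medians were 0.74 and 0.27. Heat stress replicates 1 and 3 ordered the members differently. Pearson's r across the 154 members on the log2(RPM + 1) scale was 0.68 for replicates 1 and 3 (Spearman's rho 0.55), 0.86 for replicates 1 and 2 (0.80) and 0.85 for replicates 2 and 3 (0.78). Among the controls it was 0.89 for replicates 1 and 3, 0.95 for replicates 1 and 2 and 0.91 for replicates 2 and 3. Over the 10956 species that met the control criteria, r for the heat stress pairs was 0.79, 0.82 and 0.80 in the same order. The members thus lay below these species for replicates 1 and 3 and above them for the other pairs. The rule limits the members' levels, so the ranges of the 2 sets are not alike. Members of 1 library share its preparation and depth, so these coefficients describe the libraries and carry no p. For 41 members the level in replicate 1 was more than 2 times that in replicate 3, for 23 it was the reverse, and 90 lay within 2 times. The 41 had median levels of 31.0, 8.73 and 10.3 times the control mean in replicates 1, 2 and 3, and the 23 had 9.75, 9.32 and 34.0 times. The split was made on replicates 1 and 3, so it fixes the contrast between them. Only the replicate 2 values did not enter it.

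**Figure D4:**
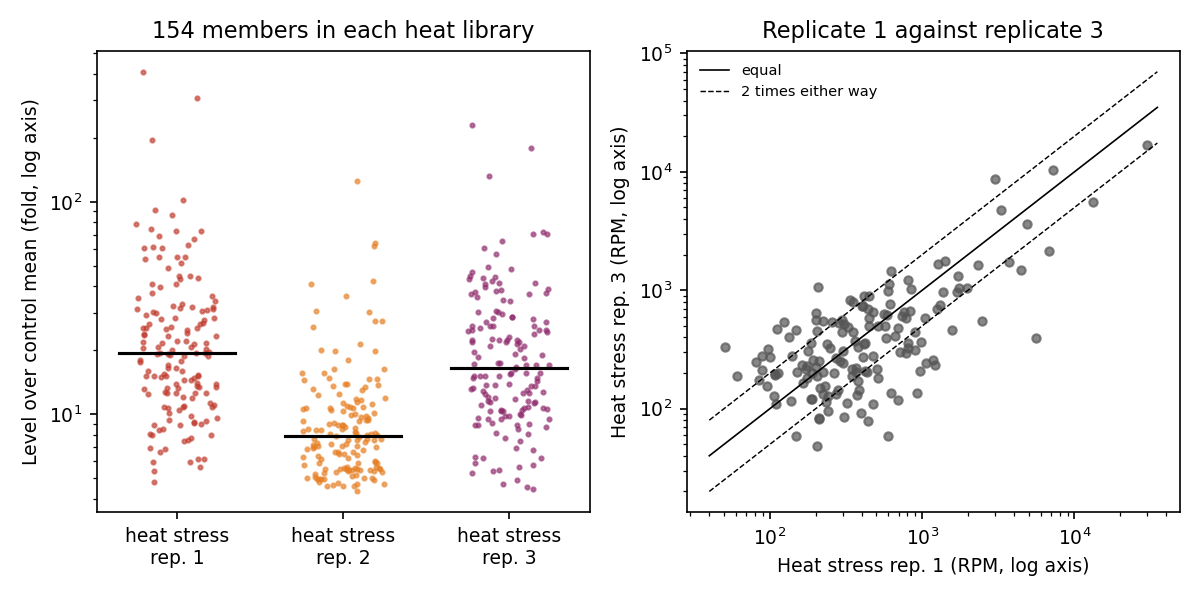
Left, the level of each of the 154 members over its control mean (fold, log axis) in each heat stress library, with medians (lines) of 19.3, 7.91 and 16.5 in replicates 1, 2 and 3. Right, levels in RPM of the members in heat stress replicates 1 and 3 on log axes, with 90 members between the dashed lines that mark 2 times either way.

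The rule places a line through a continuous distribution. Of 1402 mmu_piR_ species that met the control criteria and a heat stress mean of 100 RPM, in 716 each heat stress library lay above all controls, and in 154 of these the lowest heat stress value passed 4 times the highest control. A further 230 lay between 2 and 4 times and 332 between 1 and 2 times. Among the 10956 species that met the control criteria, whatever their heat stress level, 20.1% were above all controls in all heat stress libraries and 1.90% passed the 4-times line in all of them. The members nearest to the line were mmu_piR_013289 at 4.01 times, mmu_piR_009857 at 4.09, mmu_piR_031042 at 4.11, mmu_piR_022020 at 4.12 and mmu_piR_028722 at 4.13. Of these, mmu_piR_013289 stood at 9.81 to 21.0 RPM in the controls and 84.2 to 226 RPM in heat stress, mmu_piR_009857 at 11.3 to 28.9 and 118 to 690 RPM, and mmu_piR_031042 at 10.1 to 16.01 and 65.8 to 192 RPM. The ratio of means of mmu_piR_009857, 19.3, was 10.9 without replicate 1. Just outside lay mmu_piR_022707 at 3.94 times, mmu_piR_018405 at 3.92, mmu_piR_035545 at 3.91, mmu_piR_011823 at 3.903 and mmu_piR_015108 at 3.896. mmu_piR_022707 had a heat stress mean of 335 RPM, above the members' median of 297 RPM, and was kept out by 1 high control value of 52.9 RPM beside 6.45 and 23.7 RPM.

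Heat stress replicate 2 decided where the set ended. The 4-times line was passed by 7.81% of the 10956 species in replicate 1, by 3.06% in replicate 2 and by 9.45% in replicate 3. Among the 1402 species, 153 passed the 4-times line in replicates 1 and 3 and missed it only in replicate 2, against 25 that missed it only in replicate 1 and 17 only in replicate 3. Of the 153, 141 were still above every control in replicate 2, at a median of 2.78 times the highest control. Without replicate 2 the rule found 339 species, against 168 without replicate 1, 165 without replicate 3 and 166 to 171 without 1 of the controls. With TMM factors, a scaling that takes most species as unchanged, the rule found 258 species, of which 151 were among the 154. TMM also moved the median log2 fold change of all species tested from -0.87 to -0.53. With values scaled to the mmu_piR_ reads alone it found 135 species, of which 118 were among the 154. The TMM factors, by which values are divided, were 1.20 to 1.26 in the controls and 0.554 to 0.997 in heat stress. They therefore widened each ratio of heat stress to control. Scaling to the mmu_piR_ reads narrowed the ratios, by less than the room the 4-times line leaves. All heat stress libraries thus lay above all controls for 154 of 154 members on both scales, which says nothing of stability.

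Species were also chosen by the same rule on 2 control and 2 heat stress libraries, and their levels were read in the 2 libraries left out. This was done in each of the 9 combinations. The left-out values did not enter that choice. The rule itself was set with earlier results of these data known, so the measure is not independent of them. The species chosen in a combination are not the same set as the members. The species given beside them met the control criteria without the required heat stress mean of 100 RPM. The gap between the percentages therefore cannot be read as the effect of the 4-times line alone. With heat stress replicate 1 left out, 177 to 184 species were chosen, and 83.2% to 84.7% of them were more than 4 times higher in replicate 1 than in the left-out control, beside 10.9%, 10.6% and 11.7% of all species that met the control criteria with control replicates 1, 2 and 3 left out. With replicate 3 left out, 177 to 179 species were chosen, and 85.4% to 87.7% passed 4 times, beside 13.4%, 13.0% and 15.4%. With replicate 2 left out, 353 to 359 species were chosen, and 52.4% to 60.6% passed 4 times, beside 6.10%, 5.58% and 7.56%. The share that was merely higher, which includes those past 4 times, was as follows. Replicate 1, when left out, was above the left-out control for 91.8% to 94.4% of the chosen species, beside 35.4%, 35.5% and 37.2% of all species that met the control criteria. For replicate 2 it was 96.1% to 97.5%, beside 51.9%, 52.8% and 54.1%. For replicate 3 it was 95.5% to 96.6%, beside 47.6%, 47.8% and 49.1%. The median log2 ratio of the chosen species in the left-out pair, with 1 RPM added, was 3.60 to 3.98, 2.01 to 2.21 and 3.501 to 3.60 for replicates 1, 2 and 3. The 9 combinations share libraries, so they are given as ranges with no test.

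**Figure D5:**
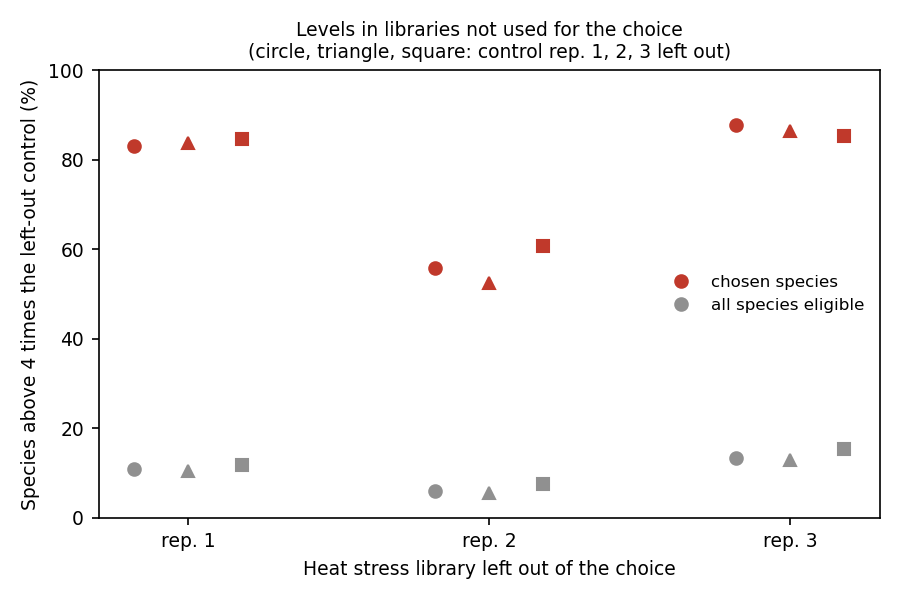
The vertical axis gives the percentage of species whose level in the left-out heat stress library (horizontal axis) was more than 4 times that in the left-out control library (circle, triangle and square for control replicates 1, 2 and 3). Species chosen on the other 4 libraries (red) lie at 83.2% to 84.7%, 52.4% to 60.6% and 85.4% to 87.7% for replicates 1, 2 and 3, and all species that met the control criteria (grey) at 5.58% to 15.4%. The grey species include the chosen ones and had no required heat stress mean, so the gap is not the effect of the 4-times line alone. The rule was set with earlier results of all 6 libraries known.

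The set was compared with the mmu_piR_ species that met the heat stress criteria from below 5 RPM in every control. There were 19 of these, with a median heat stress mean of 127 RPM, against 297 RPM for the 154 members. Their median ratio of means was larger, at 80.8 against 15.1 for the members. The required heat stress mean of 100 RPM makes a large ratio necessary from so low a control level. Only 2 species with a control mean of 500 RPM or more met the other criteria. The mirror image of the rule, with the groups exchanged, was met by 11 mmu_piR_ species on the deposited scale, by 2 with TMM factors and by 24 when scaled to the mmu_piR_ reads, against 154, 258 and 135 for the rule itself.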

How the data were processed

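Small RNA of mouse testis was sequenced in 3 heat stress and 3 control libraries. The authors' deposited values are RPM, that is reads per 1000000 reads on listed species; per the file headers the unit is tpm, but no length enters the values. The column total is 1000000 in every library. Values above 0 were multiples of a smallest step in 100% of cases, with a tolerance of 0.001 reads, and reads were recovered from that step. Total RNA was taken with Trizol, per the labels' protocols. Not given in the sources used here are the genome build, the aligner, the read filters, the piRNA database and the handling of reads that match several piRNAs.

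The members were chosen by the rule given in the text from values of all 6 libraries, and the rule and the lists were set with earlier results of these data known. All species that reached 1 RPM in 3 or more libraries were fitted with limma 3.58.1 (R 4.3.3) on log2(RPM + 1), with trend and robust moderation, and p-values were Benjamini-Hochberg adjusted over all 50786 species, with 0.05 as the threshold. As the rule used the same contrast, these values describe the members. Alternatives were a pseudocount of 0.1, no filter, a block for the replicate number, the omission of each library in turn, TMM factors, scaling to the mmu_piR_ reads, and edgeR 4.0.16 and DESeq2 1.42.0 on the recovered reads. The fits were also run on simulated data with the same dispersion in both groups. The heat stress libraries here spread more than the controls, so that run does not show how the fits behave on these data. Measuring species in libraries left out of their choice, the spread under other scalings, the share of reads with TMM factors and the calls with scaling to the mmu_piR_ reads were added after the data were seen.

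The piRNAs named are the 10 members with the highest heat stress mean, the 10 with the largest ratio of means, the 3 with the highest and the 3 with the lowest control mean, the 5 nearest to the 4-times line on either side, the 3 with the widest and the 3 with the narrowest range among heat stress libraries, and the highest member of each heat stress library.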

Additional observations from a re-analysis of the deposited data

How the results depend on the processing

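The number of species found by the rule was 165 to 339 when 1 library was left out, with the highest value without heat stress replicate 2, and 258 with TMM factors, against 154. The members' part of the gross mmu_piR_ gain was 21.0% without mmu_piR_023231, against 25.5%; a single species held that difference by construction. The difference in share of reads was 8.48 to 13.0 percentage points when 1 library was left out, against 10.6. It was 8.74 without mmu_piR_023231 and 15.0 with TMM factors. The rule chose the members on these values, so this range is no measure of stability. The median log2 fold change of the members was 3.32 to 4.22 over the alternatives run with limma, 4.69 with edgeR and 4.45 with DESeq2. limma called 154 members higher in each alternative run with it except no filter, which gave 153: mmu_piR_022020 then had a limma adjusted p of 0.0521. With the replicate number as a block 154 were called higher. The labels give no pairing of same-numbered libraries, and their deviations from the group means correlated at -0.02, 0.01 and 0.02. These values cannot settle whether such libraries shared a preparation. Among the 26 named members, 334 of 335 alternative values with an adjusted p were higher and past the threshold. Nothing is read from these counts of calls, because the members and the named ones were chosen on the same contrast. Over all species tested 6.36% were called higher in the main limma fit. The shares for no filter, the block and the left-out libraries are not given. Depth limits mainly the low control values, which rest on as few as 6 reads in a library.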

Other observations

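The only other property of a member in the files is its identifier number, whose order is not explained in the sources used here. Of the 154 members, 4 carried a number next to that of another member, in 2 pairs, which is 2.60% of the members. The same share over all species that met the control criteria is not given, so nothing is read from it. Of the neighbours in number that were not members, 78 met the control criteria. All heat stress libraries lay above all controls for 11.5% of these 78, beside 20.1% of the 10956 species. Their median ratio of means was 0.78, beside 0.91. mmu_piR_023230, next to mmu_piR_023231, stood at 10.3, 4.70 and 9.33 RPM in the controls and at 88.9, 61.9 and 276 RPM in heat stress. Its level was highest in replicate 3, while that of mmu_piR_023231 was highest in replicate 1. mmu_piR_037236 stood at 13.7, 11.99 and 17.1 RPM in the controls and at 179, 100.4 and 305 RPM in heat stress, and its neighbour mmu_piR_037237 at 8.003, 8.93 and 5.83 RPM and at 204, 85.8 and 189 RPM. mmu_piR_023230, mmu_piR_037236 and mmu_piR_037237 are named for this count and fall outside the naming rule.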
